A study of Mus musculus and synthetic RNA with 74 samples.

Results

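The structures described here are RNA folds in which the adenosine at position 15 of a 30-nt RNA is predicted to lie unpaired in an interior loop. An interior loop interrupts a stem and has at least 1 unpaired nucleotide on each strand, whereas a bulge has unpaired nucleotides on 1 strand only. The members were chosen from the dot bracket string of each structure alone. Of 36835 structures listed, 934 (2.54%) had position 15 in such a loop. Recombinant full-length human METTL16 was incubated with the methyl donor SAM and a library of RNAs with random flanks around a fixed nonamer. There were 2 such reactions, numbered 11 and 12. Each gave an input library and an m6A-IP library, the latter from RNA pulled down (immunoprecipitation, IP) by a rabbit polyclonal antibody against N6-methyladenosine (m6A). Every library therefore came from RNA that had met the enzyme, no reaction without METTL16 was analysed here, and differences between m6A-IP and input are within 1 treated RNA pool.

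METTL16 is a methyltransferase that places m6A on adenosines in structured RNAs. Its known substrates are U6 snRNA and hairpins of the MAT2A mRNA, which encodes a SAM synthetase, and they carry this nonamer or a close form of it. In an interior loop the nucleotides opposite to each other are both present but not joined by a Watson-Crick or wobble pair. In a 1-nt bulge the unpaired nucleotide has no partner across the helix.

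The library RNA is shown with the random positions as n and with the adenosine of position 15 in a capital, because every structure below is read against it.

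Library RNA, 5′ to 3′: nnnnnnnnnnnuacAgagaannnnnnnnnn

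The fixed nonamer spans positions 12 to 20, with 11 random nucleotides before it and 10 after it. Position 15 can lie on the 5′ strand of the loop, before the inner helix, or on the 3′ strand, after it. On the 5′ strand the inner helix begins with the g of position 16 in most members, and on the 3′ strand it ends with the c of position 14. One structure of each loop class and strand is aligned to the RNA below, with unpaired nucleotides as dots and base pairs as parentheses. Loop sizes are written with the unpaired nucleotides on the strand of position 15 first. These 6 have the highest mean value over the input libraries in their class.

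1x1 loop, 5′ strand: ...........(((.(((.....))).)))

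1x1 loop, 3′ strand: (((.(........).)))............

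3x1 loop, 5′ strand: ........((((...(((....))).))))

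3x1 loop, 3′ strand: (((.((....))...)))............

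3x3 loop, 5′ strand: ........((((...((....))...))))

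2x2 loop, 3′ strand: ((..(((....)))..))............

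The 934 structures had 32 combinations of loop sizes. The 1x1 loop was the most frequent with 394 structures, followed by 2x2 with 152, 3x3 with 56 and 3x1 with 51. A further 159 structures had 1 unpaired nucleotide on 1 strand and more on the other, called 1xn here, and 381 had at least 2 on each strand, called larger. Position 15 lay on the 5′ strand in 676 structures and on the 3′ strand in 258. It was the only unpaired nucleotide of its strand in 440 structures, the last one at the 3′ side in 361, the first one in 129 and inside a longer run in 4. A single hairpin was predicted in 833 structures, and 101 had 2 hairpins. The structures held between 3 and 10 base pairs, with a median of 6. All 934 were tested, with no filter beyond the authors' own listing. The lowest mean over the 4 libraries of a listed structure was 16.8. A structure with inputs below this is therefore listed only where its m6A-IP values are higher, so its rise is no independent result. The numbers of enriched structures below include such structures, and how many there are was not counted.

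The deposited value is the number of reads per structure divided by a size factor of the library. From the steps between values, the listed structures held 20454163 and 18106811 reads for input and 22118622 and 1154715 reads for m6A-IP, in the order of reactions 11 and 12. The interior-loop structures took 2.34% and 2.32% of the listed input reads and 2.77% and 2.75% of the listed m6A-IP reads. Their median was 115 and 96.5 reads in the inputs, 161.5 in the m6A-IP library of reaction 11 and 9 in that of reaction 12. In this last library 11 members had no read and 485 had fewer than 10. Values of single structures in it are therefore coarse. The 2 reactions used 1 RNA pool, so p-values measure the spread between these reactions, which may be technical.

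Most interior-loop structures showed no difference past the threshold, and of those that did, more were higher than lower in m6A-IP. Enriched and depleted here mean higher or lower in m6A-IP than in input at an adjusted p of at most 0.1, in limma's moderated test on log2 of the value plus 5 with Benjamini-Hochberg adjustment over all 36835 structures. Of the 934 members, 203 (21.7%) were enriched, against 12.5% of all structures, and 81 (8.67%) were depleted, against 27.2% of all. The median log2 fold change was 0.15 over the members and -0.27 over all structures. With each library divided by its total and not by the size factor of the authors, 348 members were enriched and 82 depleted, against 22.5% and 24.8% of all structures, and the medians were 0.37 and -0.05. The number of enriched members thus depended on the scaling, while that of depleted members hardly did. Without the input library of reaction 11 the medians were 0.14 over the members and -0.26 over all structures. Without that of reaction 12 they were 0.16 and -0.27. Far fewer structures were called in these fits. Without the m6A-IP library of reaction 11 the medians were -0.04 and -0.40, and without that of reaction 12 they were 0.33 and -0.11. In the fit without m6A-IP of reaction 11 more members were called lower than higher, as over all structures. Ranges of the numbers called are given at the end.

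Summed over the members, the log2 ratio of m6A-IP over input came to 0.19 in reaction 11 and -0.16 in reaction 12 in the deposited values, a mean of 0.01. As a share of all listed values it was 0.25 in both reactions. These ratios are a description without a test. Ratios of shares are given below where so named, since they do not depend on the size factors. Calls, medians and log2 fold changes of structures and of single sums use the deposited values unless totals are named.

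Structures with an interior loop stood between those with a bulge and those with position 15 in a hairpin loop. The log2 ratio of shares was 1.56 and 1.55 in reactions 11 and 12 for the 269 structures with a 1-nt bulge, 0.48 and 0.49 for the 246 with a larger bulge, and 0.83 and 0.87 for the 1147 with position 15 between stems. It was 0.19 and 0.18 for the 10222 with position 15 paired and -0.27 and -0.26 for the 23885 with position 15 in a hairpin loop. The difference between 2 classes was tested by limma on their log2 sums in each library, with Benjamini-Hochberg adjustment over 29 differences. Of these, 28 passed the threshold, so a call alone says little about a single difference, and its size is to be read. Some differences share classes and are not independent. Interior loops were 1.31 lower than 1-nt bulges on the log2 scale (SE 0.0070, limma adjusted p = 5.54e-06). They were 0.24 lower than larger bulges (SE 0.0080, limma adjusted p = 0.000218) and 0.60 lower than position 15 between stems. They exceeded position 15 in hairpin loops by 0.52. The difference from structures with position 15 paired was 0.06 (SE 0.0073, limma adjusted p = 0.00318). Such sums give most weight to abundant structures, and the small standard errors reflect 2 reactions of 1 pool.

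Values were higher with position 15 on the 5′ strand of the loop than with it on the 3′ strand. Of the 676 structures with position 15 on the 5′ strand, 189 (28%) were enriched and 21 (3.11%) depleted, with a median log2 fold change of 0.28. Of the 258 with it on the 3′ strand, 14 (5.43%) were enriched and 60 (23.3%) depleted, with a median of -0.20. Over all structures 12.5% were enriched and 27.2% depleted, with a median of -0.27. The 3′ strand thus had fewer enriched structures than all, but not more depleted ones. With each library divided by its total, 313 were enriched and 26 depleted on the 5′ strand, and 35 and 56 on the 3′ strand. Without input of reaction 11 the median log2 fold change was 0.28 on the 5′ strand and -0.22 on the 3′ strand. Without input of reaction 12 these were 0.27 and -0.20. Without m6A-IP of reaction 11 they were 0.12 and -0.42, and without m6A-IP of reaction 12 they were 0.45 and -0.05. The numbers called varied widely on both strands when a library was left out. In these fits without 1 library the median log2 fold change over all structures lay between -0.40 and -0.11. The log2 ratio of shares was 0.41 in both reactions on the 5′ strand, and -0.14 and -0.15 on the 3′ strand. The 5′ strand was 0.55 higher on the log2 scale (SE 0.0070, limma adjusted p = 2.02e-05), with 0.55 and 0.56 in the 2 reactions. The direction was the same in each size class, at 0.72 for 1x1 loops (SE 0.0085), 0.39 for 1xn loops and 0.29 for larger loops. A difference between strands was not particular to interior loops. Where position 15 was paired, the 5′ strand was higher by 0.40, and the difference in interior loops exceeded this by 0.15 (SE 0.0095, limma adjusted p = 0.000637). In 1-nt bulges the 5′ strand was 0.12 lower than the 3′ strand, so that the strand difference of interior loops exceeded that of 1-nt bulges by 0.67.

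The place of 1x1 loops among the sizes was opposite on the 2 strands. On the 5′ strand 1x1 loops had the highest ratio, with shares of 0.52 in both reactions, against 0.44 and 0.45 for 1xn loops and 0.32 in both for larger loops. On the 3′ strand 1x1 loops had the lowest, with -0.19 and -0.21, against 0.09 and 0.02 for 1xn loops and 0.01 and 0.04 for larger ones. The difference of 1x1 from larger loops was 0.20 on the 5′ strand (SE 0.0066) and -0.23 on the 3′ strand (SE 0.026), and these differed from each other by 0.43 (SE 0.027, limma adjusted p = 0.000637). The difference between 1xn and larger loops on the 3′ strand, 0.03, was not past the threshold (limma adjusted p = 0.346). The medians over structures placed 1x1 loops in the same way, with log2 fold changes of 0.40, 0.25 and 0.18 for 1x1, 1xn and larger loops on the 5′ strand and -0.34, -0.12 and -0.04 on the 3′ strand. Pooled over strands the sums and the medians differed in direction, since the sum of 1x1 loops was 0.13 lower than that of larger loops while the medians were 0.20 and 0.15. The 10 most abundant structures of the 3′ strand held 59.6% of the input of 1x1 loops and 75.7% of that of 1xn loops, so these sums rest on few structures. Tested as single sums against input, with Benjamini-Hochberg adjustment over 16 classes that make up the whole table, 5 passed limma's threshold. Among the 6 classes of interior loops only 1x1 loops on the 3′ strand did, with a log2 fold change of -0.43 (SE 0.17, limma adjusted p = 0.0491), whereas 1x1 loops on the 5′ strand had 0.29 (limma adjusted p = 0.229). This depended on the setting. The call of 1x1 loops on the 3′ strand was lost without the input library of reaction 11 or that of reaction 12, and with totals 1x1, 1xn and larger loops on the 5′ strand passed the threshold, at 0.52, 0.45 and 0.32. These single sums carry the difference in level between the 2 m6A-IP libraries, which cancels where classes are compared within a library.

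Among the 260 structures with a 1x1 loop and position 15 on the 5′ strand, 83 (31.9%) were enriched and 8 (3.08%) depleted, against 12.5% and 27.2% of all structures. Values of named structures are the deposited ones, in which the median log2 fold change over all structures was -0.27. The most abundant of this class, printed above as the first of the 6, had values of 2244 and 2226 in the inputs and 3477 and 2620 in the m6A-IP libraries. Its log2 fold change was 0.43 (SE 0.19), which was not past the threshold. The next in abundance had 2120 and 2176 in the inputs and 2174 and 1816 in m6A-IP, so its groups overlapped. The largest and the smallest called change of this class came from the structures below.

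1x1 loop, 5′ strand, largest: .........((.((.(((...))).)).))

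1x1 loop, 5′ strand, smallest: .......(((((.(.((....)).))))))

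The first of them rose from 50.8 and 55.5 in the inputs to 255 and 201 in the m6A-IP libraries, which is 29 reads in the shallow library of reaction 12. Its log2 fold change was 1.99 (SE 0.20, limma adjusted p = 0.0137), and both m6A-IP values lay far above both inputs. The other fell from 1006 and 913 to 418 and 340, a log2 fold change of -1.34 (SE 0.17, limma adjusted p = 0.0137). In this structure only 1 base pair separates the loop of position 15 from a 1-nt bulge at position 13, and the inner helix has 2 base pairs.

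Over all structures 12.5% were enriched and 27.2% depleted, so the share depleted in the next class was near that of all. Among the 134 structures with a 1x1 loop on the 3′ strand, 2 (1.49%) were enriched and 35 (26.1%) depleted. With totals these were 14 and 31, against 22.5% and 24.8% of all structures. The median log2 fold change of this class was -0.34. In the fits without 1 library it lay between -0.54 and -0.09, and over all structures between -0.40 and -0.11. The most abundant of all members belongs here and had 7818 and 7521 in the inputs and 7248 and 5420 in m6A-IP, a log2 fold change of -0.29 (SE 0.21) that was not past the threshold. With totals its log2 fold change was -0.06. The next had 4983 and 4917 in the inputs and 6212 and 4865 in m6A-IP, so that reaction 11 was above and reaction 12 slightly below its input. The largest called rise, in the first structure below, went from 16.1 and 16.4 to 34.9 and 48.5 (log2 fold change 1.12, SE 0.28, limma adjusted p = 0.0389). It rests on 7 reads in the shallow m6A-IP library. Both inputs are below the lowest listed mean of 16.8, so this structure was listed only through its m6A-IP values. The smallest called change, in the other one, went from 30.6 and 37.4 to 16.5 and 0, with no read in that library, and its log2 fold change of -1.91 carries an SE of 0.71.

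1x1 loop, 3′ strand, largest: .(((.((.(....).))..)))........

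1x1 loop, 3′ strand, smallest: (((.((......)).))).(((....))).

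In the 116 structures of 1xn loops on the 5′ strand, 37 (31.9%) were enriched and 3 (2.59%) depleted. In the 43 on the 3′ strand 1 (2.33%) was enriched and 11 (25.6%) were depleted. Over all structures these shares were 12.5% and 27.2%. The 3x1 loop of the 5′ strand printed above had 1828 and 1842 in the inputs and 2778 and 1982 in m6A-IP (log2 fold change 0.35, SE 0.20), above input in both reactions but not past the threshold. The next in abundance, with a 1x2 loop, had 1601 and 1576 in the inputs and 1800 and 1442 in m6A-IP, so its groups overlapped. The largest called rise on this strand was from 19.2 and 9.36 to 53.7 and 83.2 (log2 fold change 1.95, SE 0.36, limma adjusted p = 0.0209), in the first structure below. The mean of its inputs is below the lowest listed mean of 16.8, so its listing rests on its m6A-IP values. The smallest called change was in a 3x1 loop with an outer helix of 5 base pairs, the next below, from 1271 and 1254 to 979 and 755 (log2 fold change -0.55, SE 0.18). On the 3′ strand the structure called enriched, with a 2x1 loop, rose from 60.2 and 64.9 to 100 and 111 (log2 fold change 0.71, SE 0.18, limma adjusted p = 0.0405). The lowest there fell from 67.4 and 70.2 to 28 and 6.93 (log2 fold change -1.89, SE 0.48), where 6.93 is a single read. The number of enriched 1xn structures on the 3′ strand was 5 with totals. The median log2 fold change of all 1xn structures on this strand was -0.12. It lay between -0.36 and -0.05 in the fits without 1 library.

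3x1 loop, 5′ strand, largest: ........((.(...(((...))).).)).

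3x1 loop, 5′ strand, smallest: .......(((((...((....)).))))).

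2x1 loop, 3′ strand, largest: (((..((.(....)..))..))).......

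2x1 loop, 3′ strand, smallest: ((((((.((...))..))))))........

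Neither of the 2 most abundant 1xn structures of the 3′ strand passed the threshold. The 3x1 loop printed at the start had 1107 and 1138 in the inputs and 1082 and 755 in m6A-IP, below both inputs in each m6A-IP library. Its log2 fold change was -0.31, against a median of -0.27 over all structures, and -0.08 with totals. A 1x2 loop had 915 and 960 in the inputs and 1025 and 721 in m6A-IP, so its groups overlapped.

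In the 300 structures of larger loops on the 5′ strand, 69 (23%) were enriched and 10 (3.33%) depleted, against 12.5% and 27.2% of all structures. The 3x3 loop printed above had 4423 and 4244 in the inputs and 3781 and 3063 in m6A-IP (log2 fold change -0.35, SE 0.18), lower in both but not past the threshold. A 3x2 loop with an outer helix of 5 base pairs, the next in abundance, fell from 3005 and 2990 to 2247 and 1747 (log2 fold change -0.60, SE 0.18, limma adjusted p = 0.0602). The largest called rise was in a 5x2 loop, from 31.1 and 27.5 to 141 and 97 (log2 fold change 1.83, SE 0.24, limma adjusted p = 0.0139). The smallest called change was in a 2x2 loop, from 106 and 113 to 75.8 and 27.7, with 4 reads in the shallow m6A-IP library. The structures are shown in this order.

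3x2 loop, 5′ strand, abundant: .......(((((...((....))..)))))

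5x2 loop, 5′ strand, largest: ........((.....(((...)))..))..

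2x2 loop, 5′ strand, smallest: .....((.(((((..(....)..)))))))

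Larger loops on the 3′ strand had 11 enriched (13.6%) and 14 depleted (17.3%) structures of 81, against 12.5% and 27.2% of all structures. The share enriched was thus near that of all. The 2x2 loop printed at the start had 1206 and 1270 in the inputs and 1064 and 755 in m6A-IP (log2 fold change -0.46, SE 0.20) and was not past the threshold. The next in abundance, also 2x2 but with an outer helix of 5 base pairs, fell from 505 and 493 to 304 and 229 (log2 fold change -0.91, SE 0.19, limma adjusted p = 0.0257). The largest called rise, from 6.22 and 5.85 to 20.2 and 41.6, rests on 6 reads in the shallow library. Both inputs are below the lowest listed mean of 16.8, so this structure was listed only through its m6A-IP values. The smallest called change, in a 2x3 loop, was from 66.9 and 80.7 to 29.4 and 13.9 (log2 fold change -1.62, SE 0.34).

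2x2 loop, 3′ strand, abundant: .(((((..(....)..))))).........

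2x2 loop, 3′ strand, largest: ((.((..(.....)..))..))........

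2x3 loop, 3′ strand, smallest: (((((...(....)..))))).........

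The helices next to the loop were examined after the values of the members had been seen, so their groups are descriptions. Their counts stand against 12.5% enriched and 27.2% depleted over all structures. On the 5′ strand the length of the inner helix went with the ratio, but not step by step. The median log2 fold change was 0.26 in the 165 structures with 1 inner base pair, 0.06 in the 334 with 2, 0.73 in the 169 with 3 and 0.82 in the 8 with 4. Of those with 3, 96 were enriched and 1 depleted, whereas of those with 2, 47 were enriched and 14 depleted. Summed over structures, 3 or more inner base pairs gave a log2 ratio 0.80 and 0.79 higher than 2 in reactions 11 and 12. The same difference was 0.26 and 0.31 on the 3′ strand, although none of the 26 structures with 3 inner base pairs was enriched and 6 were depleted. There, 30 of the 54 structures with 2 inner base pairs were depleted and none was enriched, and all 14 enriched structures had a single inner base pair. These include the largest rises of 1x1 and of larger loops on this strand, which were listed only through their m6A-IP values. The pattern is therefore not independent of the listing.

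From 2 base pairs on, the median was lower the longer the outer helix was, on both strands. On the 5′ strand the median log2 fold change was 0.50 in the 159 structures with an outer helix of 2 base pairs, 0.40 in the 227 with 3, 0.10 in the 139 with 4, -0.15 in the 45 with 5 and -0.31 in the 12 with 6. Those with 1 outer base pair, 91 in number, had 0.23 and did not continue this order. On the 3′ strand the medians were 0.12 in the 64 structures with 2 base pairs, -0.14 in the 94 with 3, -0.30 in the 47 with 4, -0.66 in the 23 with 5 and -1.25 in the 9 with 6, while the 19 with 1 base pair had -0.05. In the shares of the 3′ strand the mean log2 ratio did not fall from 2 to 3 base pairs, at -0.10 and -0.06. The sums of outer helices of at least 5 base pairs differed from those of 1 or 2 by -0.55 and -0.66 in reactions 11 and 12 on the 5′ strand and by -0.60 and -0.52 on the 3′ strand.

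In 643 of the 676 structures of the 5′ strand the inner helix began directly after position 15. These were divided by the length of the inner helix and by the hairpin loop it closes. With 3 base pairs and a hairpin loop of 3 nt, in which positions 16 to 18 pair with 22 to 24, 62 of 90 structures were enriched and 1 was depleted, with a median log2 fold change of 0.91. With 3 base pairs and a loop of 4 nt, 22 of 54 were enriched and none depleted, with a median of 0.56, and with a loop of 5 nt 7 of 17 were enriched. With 2 base pairs and loops of 3, 4 and 5 nt, 16 of 86, 21 of 157 and 4 of 50 were enriched, with medians of 0.29, 0.00 and -0.06. With 1 base pair the order ran the other way, since 4 of 53 were enriched with a loop of 4 nt, 19 of 61 with 5 nt and 16 of 37 with 6 nt. The inner base pair with a loop of 6 nt joins positions 16 and 23, as does the outer one of the hairpins with 2 base pairs and 4 nt.

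The hairpin of positions 16 to 24 also had high values where position 15 was not in an interior loop. The log2 ratio of shares was 1.0 and 0.99 in the 90 interior-loop structures, 0.92 in both reactions in 47 with position 15 between stems, 0.76 and 0.71 in 221 with position 15 paired on the 5′ strand, and 0.71 and 0.79 in 78 with a larger bulge. With a 1-nt bulge it was 2.44 and 2.41 in 59 structures. Of these, 52 (88.1%) were enriched, against 62 (68.9%) of the interior-loop structures and 31 (66%) of those between stems. With position 15 paired on the 5′ strand 98 (44.3%) were enriched, and with a larger bulge 36 (46.2%). Of 13 structures with position 15 paired on the 3′ strand, 7 (53.8%) were enriched, with log2 ratios of shares of 0.94 and 0.92. Over all 509 structures with this hairpin 286 (56.2%) were enriched. Among interior loops with this hairpin, 24 of 30 with a 1x1 loop, 16 of 22 with a 1xn loop and 22 of 38 with a larger loop were enriched.

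To set an interior loop against a bulge, each member was matched with a structure with no unpaired nucleotides opposite to position 15. Helix lengths and the strand of position 15 were the same. The unpaired nucleotides were moved to the tail on that side, so the outer helix there is shifted and uses other positions of the RNA. Such a counterpart was listed for 224 members. The listing rests on a mean that includes m6A-IP. A rare member or counterpart is thus in a pair more readily where its m6A-IP values are high. How this bears on the differences was not tested. In limma's test on the difference within each pair, with Benjamini-Hochberg adjustment over the pairs, the interior loop was lower in 43 and higher in 2, with a median difference of -0.17 on the log2 scale. With a replicate block for the reaction these were 34 and 0. Leaving out the input library of reaction 11 or that of reaction 12 left 0 pairs called by limma, with 33 lower at an unadjusted p under 0.05 in each case. Without the m6A-IP library of reaction 11 88 pairs were lower and 44 higher, and without that of reaction 12 76 and 26. Most pairs called lower had a 1-nt bulge as counterpart. Against a 1-nt bulge, 39 of 116 pairs were lower and none higher, with a median of -0.50, whereas against a larger bulge 4 of 108 were lower and 2 higher, with a median of 0.03. The 116 pairs had 94 distinct counterparts and the 108 pairs had 72. Some pairs thus share a counterpart and are not independent. In 1x1 loops the median was -1.61 on the 3′ strand, where all 14 pairs were below 0, and -0.45 on the 5′ strand, where 60 of 80 were. The pairs with the largest mean value, which were named by that rule, were the following.

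1x1 loop, 3′ strand: (((.(((....))).)))............

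1-nt bulge counterpart: .((((((....))).)))............

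1x1 loop, 5′ strand: ...........(((.(((....))).))).

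1-nt bulge counterpart: ...........(((.(((....))))))..

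The 1x1 loop on the 3′ strand had 4652 and 4610 in the inputs and 3366 and 2620 in m6A-IP, while its bulged counterpart had 1217 and 1212 in the inputs and 5792 and 4526 in m6A-IP. Their log2 fold changes were -0.64 and 2.07, a difference of -2.71 (SE 0.12, limma adjusted p = 0.00567), and the m6A-IP values went in opposite directions from input. The 1x1 loop on the 5′ strand rose from 1397 and 1356 to 2770 and 2315, and its bulged counterpart rose from 1282 and 1243 to 8493 and 6882. Here both were above input, with a difference of -1.72 (SE 0.12, limma adjusted p = 0.00662).

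Loops with 1 unpaired nucleotide on a strand were compared with the corresponding bulge at every position of the RNA, a comparison added after the values had been seen. In the fit on all 13712 such pairs 0% were called higher and 0% lower by limma, although 1731 pairs were higher and 493 lower at an unadjusted p under 0.05. The calls above therefore hold only in the fit on the pairs of position 15. The median difference was -0.50 over the 116 pairs at position 15. At 24 other positions with at least 10 pairs the medians ranged from -0.79 at position 16 to 0.79 at position 2, with a middle value of 0.23, and 3 of them were below 0. These were positions 14, 16 and 17 of the nonamer, with -0.14 over 108 pairs, -0.79 over 10 and -0.29 over 334.

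To set the 1x1 loop against an uninterrupted stem, each 1x1 member was matched with the structure in which position 15 is paired with the nucleotide opposite to it. This counterpart was listed for 368 of 394 members. The limit from the listing holds for these pairs too. The open loop was higher in 179 pairs (48.6%) and lower in 2 in limma's test with Benjamini-Hochberg adjustment over the pairs, and the median difference was 0.63. With a replicate block these were 176 and 0. Leaving out the input library of reaction 11 or that of reaction 12 left 0 pairs called by limma, with 66 and 59 higher at an unadjusted p under 0.05. The medians were 0.63 on the 5′ strand and 0.62 on the 3′ strand, and 345 of 368 differences were above 0. The pairs with the largest mean value both had a single outer base pair.

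1x1 loop, 4-nt hairpin loop: .............(.(((....))).)...

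Closed counterpart: .............(((((....)))))...

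1x1 loop, 5-nt hairpin loop: .............(.(((.....))).)..

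Closed counterpart: .............(((((.....)))))..

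The first 1x1 loop had 362 and 340 in the inputs and 780 and 714 in m6A-IP, and its closed stem, a far more abundant structure, had 25658 and 26204 in the inputs and 25272 and 19781 in m6A-IP. The difference of their log2 fold changes, 1.08 and -0.21, was 1.29 (SE 0.16, limma adjusted p = 0.0291). The other 1x1 loop rose from 435 and 415 to 915 and 638, against 21870 and 21686 in the inputs and 26394 and 19926 in m6A-IP for its closed stem. Its difference was 0.76 (SE 0.14, limma adjusted p = 0.0326).

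A higher value of the open loop was not particular to position 15. In the fit on 13104 pairs with a 1x1 loop anywhere in the RNA, 73.5% were called higher and 0.549% lower by limma, with a median difference of 1.03. In that fit 193 of the 368 pairs at position 15 were higher and 2 lower. The median at position 15, 0.63, was below the middle value of 1.04 over 27 other positions, of which 3 had a lower median. The position with the lowest was 14, next to it, with 0.10 over 128 pairs, and the highest was 21, with 1.36.

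Position 15 did not have the highest ratio among the positions of interior loops either. Over all structures with a given position in an interior loop, the mean log2 ratio of shares at position 15 was 0.25, and 8 of 27 other positions were above it. For 1x1 loops with the position on the 5′ strand, position 15 had 0.52, below 2 of 15 other positions with at least 10 structures, whose middle value was 0.10. On the 3′ strand it had -0.20, below 14 of 17 other positions, whose middle value was 0.13. Structures that share a helix or a loop hold related RNAs, and each structure pools many sequences, whose base composition was not analysed here.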

How the data were processed

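The in vitro table was analysed for 2 input and 2 m6A-IP libraries. The authors trimmed reads (cutadapt 1.9.1 in the submitters' processing notes), selected those in which the nonamer was in its place, predicted the fold of every RNA by RNAfold, summed the reads of a structure and divided the sums by size factors of DESeq2 1.18.1, so the deposited signal is a normalized number of reads. Listed structures had a mean of at least 16.8. The authors' columns of mean, fold change, its error, test score and p-values were not used, nor were the embryo tables. Structures are predictions of minimum free energy.

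Values were tested with limma 3.58.1 (R 4.3.3) on log2(value + 5) with a mean-variance trend over all structures, m6A-IP against input, Benjamini-Hochberg adjustment and a threshold of 0.1. Pairs and class sums used the same test without the trend. Other steps used Python 3.11.15, numpy 2.4.6 and pandas 2.3.3. Scripts were tested on simulated data. The values of each library were whole multiples of a step taken as 1 read. Reads carry no molecular identifiers.

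Same-numbered libraries came from 1 reaction per the methods and are paired. Deviations from the group means correlated by 0.02 within a reaction. The value across reactions, -0.02, is no separate comparison. Deviations within a group are equal and opposite, so it is the first value with its sign changed. The main tests did not model the pairing, whereas the fits with a replicate block did.

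The members, lists and tests were chosen with earlier results of these data known. The 29 class differences, the comparisons across positions and the hairpin groups were chosen after values of the members were seen, from 11 groupings looked through on each strand. Named structures are, per loop class and strand, the 2 most abundant in input, the largest and smallest called change of equal sign in both reactions, and the 2 most abundant pairs of each kind. Alternatives were scaling, pseudocounts, a filter, a replicate block, array weights, helix length and leaving out each library. Individual RNA sequences were not analysed here.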

Additional observations from a re-analysis of the deposited data

Results flagged for a closer look

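Some effects differed between classes of structures by the test of the difference itself, in limma's test on log2 sums with Benjamini-Hochberg adjustment over 29 differences. The difference between the 5′ and 3′ strand was larger in interior loops than in 1-nt bulges by 0.67 on the log2 scale (SE 0.038, limma adjusted p = 0.000637), with 0.64 and 0.71 in reactions 11 and 12. It was larger than in larger bulges by 0.36 (SE 0.078, limma adjusted p = 0.0191), with 0.26 and 0.46, where only 8 bulges had position 15 on the 3′ strand. It was larger than in structures with position 15 paired by 0.15, with 0.14 and 0.16. The difference between 1x1 and larger loops was higher on the 5′ than on the 3′ strand by 0.43, with 0.40 and 0.45, and its sign was opposite on the strands.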

How the results depend on the processing

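Pseudocounts of 1 and 20, a minimum mean value of 20, array weights (chosen after seeing the data) and the replicate block kept the numbers of enriched members, depleted members, pairs lower than the bulge and pairs higher than the closed stem within 1.5 times. With the replicate block 185 members were enriched and 87 depleted, and of the named structures and class differences none changed its call. Scaling to totals moved the enriched members from 203 to 348 and the classes past the threshold from 5 to 14, and gave a pooled log2 ratio of 0.25. By construction it shifts each library by its own factor. It thereby also removes the difference in level between the 2 m6A-IP libraries, which the single sums carry. With both helices of at least 2 base pairs, which leaves fewer members, 126 were enriched and 44 depleted. The fit on pairs at every position, also chosen after seeing the data, called 0 pairs of interior loop and bulge.

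Without single libraries, enriched members ranged from 25 to 491, depleted from 14 to 365, pairs lower than the bulge from 0 to 88, pairs higher than the closed stem from 0 to 258 and classes past the threshold from 2 to 15. The pooled log2 ratio ranged from -0.17 to 0.19. The median log2 fold change ranged from -0.04 to 0.33 over the members and from -0.40 to -0.11 over all structures. Fits without an input library have 1 input, which is assumed to vary like the m6A-IP libraries, and the reverse. Without one or the other input library, the strand difference of 1-nt bulges (-0.16 to -0.08 over the libraries left out), that of larger bulges (0.10 to 0.29) and, without that of reaction 12, the strand difference of interior loops over larger bulges (0.26 to 0.46) were no longer past the threshold. The difference between 1xn and larger loops on the 3′ strand (0.00 to 0.06) passed it without the m6A-IP library of reaction 12. All other class differences kept their call and direction.

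Signs that turned, with a call in one of the fits compared, were the sum of 1xn loops on the 3′ strand (0.06 with totals), that of larger loops on the 5′ strand (-0.09 without m6A-IP of reaction 11), the 1x1 loop of the 5′ strand next in abundance (0.12 with totals), the 1x2 loop of the 5′ strand (-0.14 to 0.18 over the libraries left out) and the 1x2 loop of the 3′ strand (-0.38 to 0.13). The cause was not tested. Of 239 values of the 24 named structures under the alternatives, 193 kept their call, 19 lost it, 24 gained one and the 3 single structures above turned. Signs also turned without a call in either fit for the sum of larger loops on the 3′ strand (0.03 with totals) and for the next most abundant 1x1 loop of the 3′ strand (-0.02 without m6A-IP of reaction 11), and in further fits of structures and sums named before. The planned test on counts was not run. The m6A-IP library of reaction 12 limits single structures, since 485 members had fewer than 10 reads in it.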
